A study of Mus musculus with 6 samples.

Results

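Apolipoprotein genes and the microsomal triglyceride transfer protein gene were followed in the livers of mice that lack SMP30/GNL, the gluconolactonase that mice use to make ascorbic acid (AA, vitamin C). The members, chosen by name, were Apoa1, Apoa2, Apoa4, Apoa5, Apob, Apoc3, Apoe, Apom, Apoh and Mttp. Each was represented by the probe set annotated to that symbol alone, with the highest mean where a gene had more than 1. All 10 had exactly 1 such probe set, so none was dropped, out of 19550 genes with a value and 14662 genes tested. The study measured liver RNA of male mice on 6 arrays, 2 in each of 3 groups, all on a C57BL/6NCrSlc background and all fed a diet without AA. The first group were SMP30/GNL knockouts without AA (AA-deficient knockouts). The next were SMP30/GNL knockouts given AA in drinking water, with EDTA as a stabiliser (AA-supplemented knockouts). Per the labels, that supply was enough for normal AA in the tissues. The last were wild-type mice on the vitamin C-deprived diet with water free of the vitamin, which make their own AA. The labels give no ages, do not say which part of the gene was removed or in which cells, and do not say whether mice other than the AA-supplemented ones drank EDTA.

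Apolipoproteins are the protein coat of lipoprotein particles, and the liver makes most of them. Apolipoprotein B forms the scaffold of very-low-density lipoprotein (VLDL), and the transfer protein encoded by Mttp loads it with triglyceride in the endoplasmic reticulum, without which VLDL is not secreted. Apolipoproteins A-I and A-II build high-density lipoprotein (HDL), apolipoprotein E is the ligand by which remnants are taken up, and apolipoproteins A-V and C-III act on lipoprotein lipase in opposite directions, A-V favouring and C-III restraining triglyceride clearance. Apoa1, Apoc3, Apoa4 and Apoa5 are neighbours in a cluster on mouse chromosome 9. Many apolipoprotein promoters carry sites for hepatocyte nuclear factor 4 (HNF4) and other nuclear receptors.

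The stretches directly before the start sites of Apoa4, Apom and Apob are shown because these were the members whose values differed most between groups. They come from RefSeq (GRCm38.p6), read 5′ to 3′ on the strand of the gene and ending at the base before the start, and capitals mark every match to the motifs searched. The Apoa4 stretch is chr9:46240624-46240843 on the plus strand, the Apom stretch is chr17:35131802-35131961 on the minus strand and the Apob stretch is chr12:7977527-7977676 on the plus strand.
Apoa4: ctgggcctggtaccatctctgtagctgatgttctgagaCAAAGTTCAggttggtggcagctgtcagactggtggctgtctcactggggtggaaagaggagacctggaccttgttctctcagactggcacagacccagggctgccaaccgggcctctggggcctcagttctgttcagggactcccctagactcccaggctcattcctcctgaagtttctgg
Apom: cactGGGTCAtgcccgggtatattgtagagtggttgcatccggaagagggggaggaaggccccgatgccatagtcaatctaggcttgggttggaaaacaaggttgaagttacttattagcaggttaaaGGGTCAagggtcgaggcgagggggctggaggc
Apob: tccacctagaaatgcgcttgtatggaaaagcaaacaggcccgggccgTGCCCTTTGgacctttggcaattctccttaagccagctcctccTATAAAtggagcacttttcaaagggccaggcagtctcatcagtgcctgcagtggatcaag

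On both strands, the 250 bases before each start were searched for CAAAGNNCA (a core of HNF4 sites), AGGTCA and GGGTCA (nuclear receptor hexamers), GTTAAT (a part of HNF1 sites), CACGTG (the E-box) and TATAAA (the TATA box). CAAAGNNCA lay 182 to 174 bases before the start of Apoa4 as CAAAGTTCA, and 103 to 95 bases before that of Apob as TGCCCTTTG, its reverse complement being CAAAGGGCA. Of 32851 promoter entries, 5.49% held this motif. The motifs were chosen after the promoter sequences were seen, so these shares are given as description alone. The Apom stretch held GGGTCA at 156 to 151 and at 32 to 27 bases before its start, a hexamer present in 11.6% of entries. Apob also held TATAAA at 60 to 55 bases, which 12.4% of entries held. The other motifs were present in 14% of entries for AGGTCA, 6.43% for GTTAAT and 6.02% for CACGTG, and were not in these windows of Apoa4, Apom or Apob. Promoter entries (13) were found for 9 of the 10 members. A motif is listed for a member if any of its entries held it. Among the others, CAAAGNNCA also lay before Apoh, at 93 to 85 bases, as CAAAGCGCA. GGGTCA also lay before Apoa5 and Apoe, and TATAAA before Apoa2, Apoa5 and Apoe. AGGTCA lay before Apoa2 and Apoh, GTTAAT before Apoe and CACGTG before Apoa5.

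The deposited values, in log units taken as log10, ran from -0.58 to 2.51. Array medians were 0.377 and 0.364 in AA-deficient knockouts, 0.352 and 0.392 in AA-supplemented knockouts and 0.367 and 0.350 in wild type, and arrays correlated at 0.965 to 0.975 within and 0.945 to 0.974 between groups. Rgn, the gene of SMP30, was at 0.23 and 0.30 in AA-deficient knockouts, 0.34 and 0.14 in AA-supplemented knockouts, and 2.07 and 2.0 in wild type. The labels do not tie the 2 arrays of each group to different mice, so p-values reflect spread among these samples alone, and that spread may be technical. The labelled tissue was checked on 11 hepatocyte markers with a value, of 13 listed. Their mean value was 1.99 on each array of AA-deficient knockouts, 1.90 to 2.01 in AA-supplemented knockouts and 1.91 to 1.95 in wild type. Albumin averaged 2.27 over all arrays. Enterocyte markers, which matter because the intestine also makes apolipoproteins A-IV and B, averaged 0.24 to 0.31, 0.28 to 0.31 and 0.33 in the same order of groups. Over all arrays these 9 markers ran from -0.06 for Sis to 1.28 for Fabp2, and 4 were bright enough to be tested. In liver RNA, fewer cells of a type and less RNA per cell cannot be told apart.

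Among the members, Apoa4 fell in AA-deficient knockouts against wild type, and it was the only member past the threshold (an adjusted p under 0.05, limma) in any comparison. In AA-deficient knockouts against wild type this was 1 of 10 members, against 4.63% of all genes tested, and 4 of 10 had an unadjusted p under 0.05, against 20.4% of all genes. The groups did not overlap for 7 members, against 54.5% of all genes (4 higher, against 27.6%, and 3 lower, against 26.9%). Between AA-deficient and AA-supplemented knockouts 0 members passed in limma, against 0.205% of all genes. There 2 members had an unadjusted p under 0.05, against 9.92% of genes, and 2 did not overlap, against 37.3% (0 higher, against 19.8%, and 2 lower, against 17.5%). For AA-supplemented knockouts and wild type, 0 members passed in limma, against 0.00682% of all genes, which is Rgn alone. Of the members, 1 had an unadjusted p under 0.05, against 10.6% of genes. In that comparison 3 did not overlap, against 38.6% (2 higher, against 19.8%, and 1 lower, against 18.8%). A test over the 3 groups at once (limma's F test) called 0 members at an adjusted p under 0.05, against 1.36% of genes. It called 3 members, Apoa4, Apob and Apom, at an unadjusted one, against 16.8%. The median difference over the members was -0.032 between the knockouts, -0.0015 in AA-deficient knockouts against wild type and 0.028 in AA-supplemented knockouts against wild type. Over all genes these medians were 3.1e-05, -0.0034 and -0.0017.

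**Figure D1:**
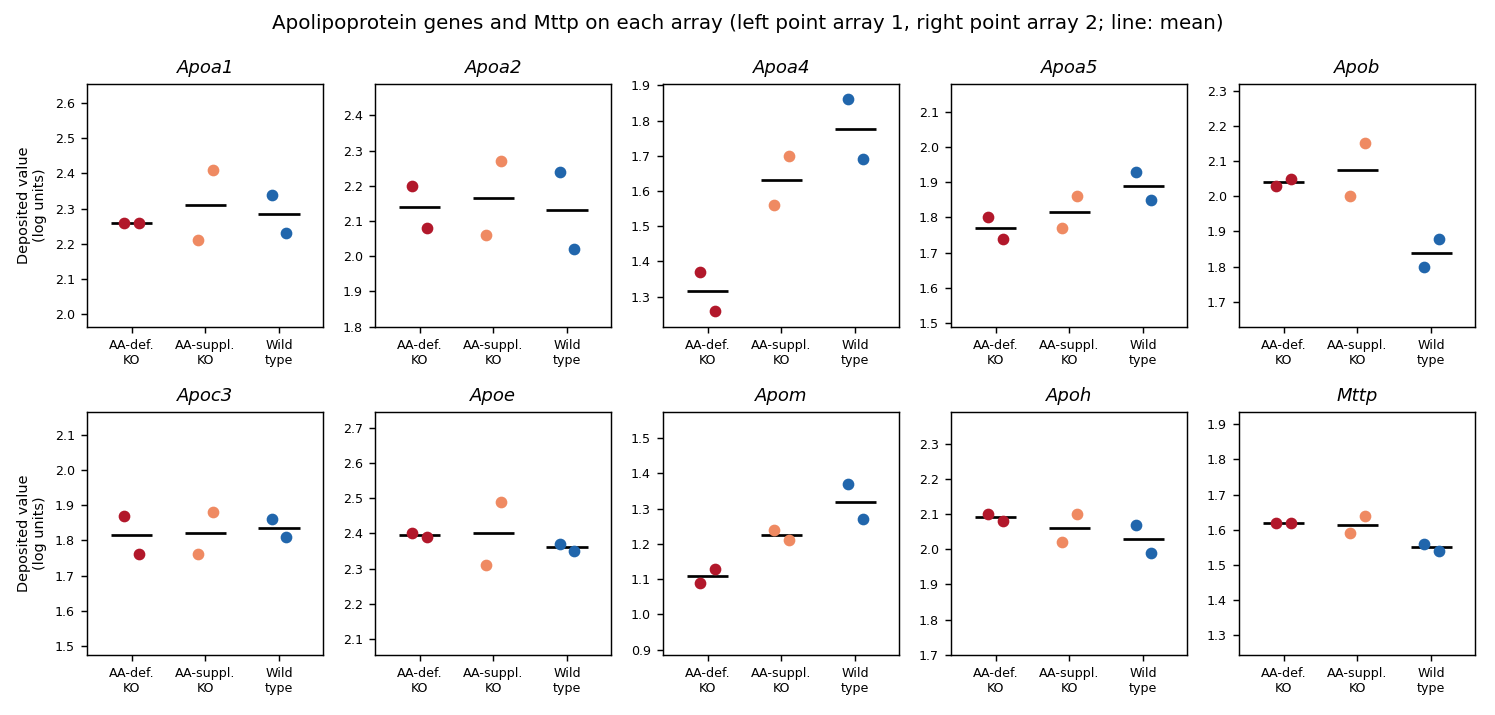
Deposited values (log units) of the 10 members on each of the 6 arrays, with array 1 as the left point, array 2 as the right point and the group mean as a line; every panel spans the same number of log units. Apoa4 values were 1.26 to 1.37 in AA-deficient knockouts and 1.69 to 1.86 in wild type, and Apob values were 2.0 to 2.15 in AA-supplemented knockouts and 1.80 to 1.88 in wild type.

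Apoa4 encodes apolipoprotein A-IV, a component of chylomicrons, VLDL and HDL that is also expressed in mouse liver. Its values (Entrez 11808, probe set 10585010) were 1.37 and 1.26 in AA-deficient knockouts, 1.56 and 1.70 in AA-supplemented knockouts, and 1.86 and 1.69 in wild type. The AA-deficient knockouts were the lowest arrays, below every array of the other groups, whereas AA-supplemented knockouts and wild type overlapped. The group means were 1.31 ± 0.082, 1.63 ± 0.1 and 1.77 ± 0.12 (SD, n = 2 each), in the order AA-deficient knockouts, AA-supplemented knockouts and wild type. Against wild type, Apoa4 fell in AA-deficient knockouts by 0.46 (SE 0.075, 95% interval -0.63 to -0.29), which is 2.89-fold lower on the log10 reading (adjusted p = 0.0212, limma). Between the knockouts, the difference was -0.31 (SE 0.075, 95% interval -0.49 to -0.14) and did not pass (adjusted p = 0.19, limma). AA-supplemented knockouts differed from wild type by -0.15 (SE 0.075, 95% interval -0.32 to 0.026, adjusted p = 0.545, limma). The call against wild type was lost without AA-deficient array 2 (difference -0.40, adjusted p = 0.0981), without wild-type array 1 (-0.37, adjusted p = 0.168) and without wild-type array 2 (-0.55, adjusted p = 0.079). It was also lost with no filter on dim genes (adjusted p = 0.0527), and the replicate block gave an adjusted p of 0.0549.

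Apom encodes apolipoprotein M, the HDL carrier of sphingosine-1-phosphate. Its values (Entrez 55938, probe set 10450444) were 1.09 and 1.13 in AA-deficient knockouts, 1.24 and 1.21 in AA-supplemented knockouts, and 1.37 and 1.27 in wild type. No 2 groups overlapped, with AA-deficient knockouts lowest and wild type highest. The difference of AA-deficient knockouts from wild type was -0.21 (SE 0.048, 95% interval -0.32 to -0.10) and did not pass (adjusted p = 0.051, limma). It was -0.11 between the knockouts (SE 0.048, 95% interval -0.23 to -0.0037, adjusted p = 0.482, limma) and -0.10 in AA-supplemented knockouts against wild type (SE 0.048, 95% interval -0.21 to 0.015, adjusted p = 0.543, limma). Of 18 alternative settings, 10 took the difference between AA-deficient knockouts and wild type past the threshold, with adjusted p from 0.00688 to 0.296 over all of them. For AA-deficient knockouts against wild type, 3 of the 18 (only the 4 arrays compared, and leaving out either AA-supplemented array) are the same fit, and they are among the 10.

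Apoa1, the main structural protein of HDL, was at 2.26 on each array of AA-deficient knockouts, at 2.21 and 2.41 in AA-supplemented knockouts, and at 2.34 and 2.23 in wild type. Apoa2, the second structural protein of HDL, was at 2.20 and 2.08 in AA-deficient knockouts, 2.06 and 2.27 in AA-supplemented knockouts, and 2.24 and 2.02 in wild type. For both genes every pair of groups overlapped. Against wild type, AA-deficient knockouts differed by -0.025 for Apoa1 (95% interval -0.18 to 0.13) and by 0.012 for Apoa2 (95% interval -0.20 to 0.22). Apoe, the ligand of remnant receptors, was at 2.40 and 2.39 in AA-deficient knockouts, 2.31 and 2.49 in AA-supplemented knockouts, and 2.37 and 2.35 in wild type. The AA-deficient knockouts lay above wild type by 0.034 (SE 0.059, adjusted p = 0.814, limma) without overlap, and the AA-supplemented arrays lay on either side of both. Kupffer cells also transcribe Apoe. The 14 markers of these cells and macrophages had a mean value of 0.93 to 1.01 in AA-deficient knockouts, 0.90 to 1.0 in AA-supplemented knockouts and 0.91 to 0.93 in wild type. In limma 0 of these markers passed the threshold in any comparison. An unadjusted p under 0.05 was reached by 2 between the knockouts (9.92% of all genes). Against wild type it was reached by 2 in AA-deficient (20.4%) and 1 in AA-supplemented knockouts (10.6%). The part of these cells in the Apoe values was not tested.

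Apob, the scaffold gene of VLDL, did not pass in any comparison, though its knockout and wild-type arrays did not overlap. Its values (Entrez 238055, probe set 10394394) were 2.03 and 2.05 in AA-deficient knockouts, 2.0 and 2.15 in AA-supplemented knockouts, and 1.80 and 1.88 in wild type. Every knockout array lay above every wild-type array, and the knockout groups overlapped. The difference from wild type was 0.20 in AA-deficient knockouts (SE 0.058, 95% interval 0.064 to 0.33, 1.58-fold) and 0.24 in AA-supplemented knockouts (SE 0.058, 95% interval 0.10 to 0.37, 1.72-fold). Neither passed (adjusted p = 0.102 and 0.233, in that order, limma). Both comparisons use the same wild-type arrays. Between the knockouts Apob differed by -0.037 (SE 0.058, 95% interval -0.17 to 0.10, adjusted p = 0.916, limma), and by 0.040 without AA-supplemented array 2. Of 18 alternative settings, 5 took the difference of AA-deficient knockouts from wild type past the threshold, with adjusted p from 0.0398 to 0.428, and the 3 identical fits are among the 5.

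Mttp had the smallest standard error of the members. Its values were 1.62 on each array of AA-deficient knockouts, 1.59 and 1.64 in AA-supplemented knockouts, and 1.56 and 1.54 in wild type. Every knockout array again lay above every wild-type array, by small amounts. The difference from wild type was 0.068 in AA-deficient knockouts (SE 0.040, 95% interval -0.026 to 0.16, adjusted p = 0.401, limma) and 0.063 in AA-supplemented knockouts (SE 0.040, 95% interval -0.031 to 0.16, adjusted p = 0.638, limma). Between the knockouts it was 0.0054 (95% interval -0.088 to 0.10). Apob and Mttp are the members with the longest span in the genome, introns included, longer than 69.2% and 76.7% of genes tested. Over all genes the difference correlated with span across genes (Spearman's rho 0.24 in AA-deficient and 0.20 in AA-supplemented knockouts against wild type), genes not being independent replicates. With the trend on span removed, Apob differed from wild type by 0.19 in AA-deficient and 0.23 in AA-supplemented knockouts, and Mttp by 0.050 and 0.049.

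**Figure D2:**
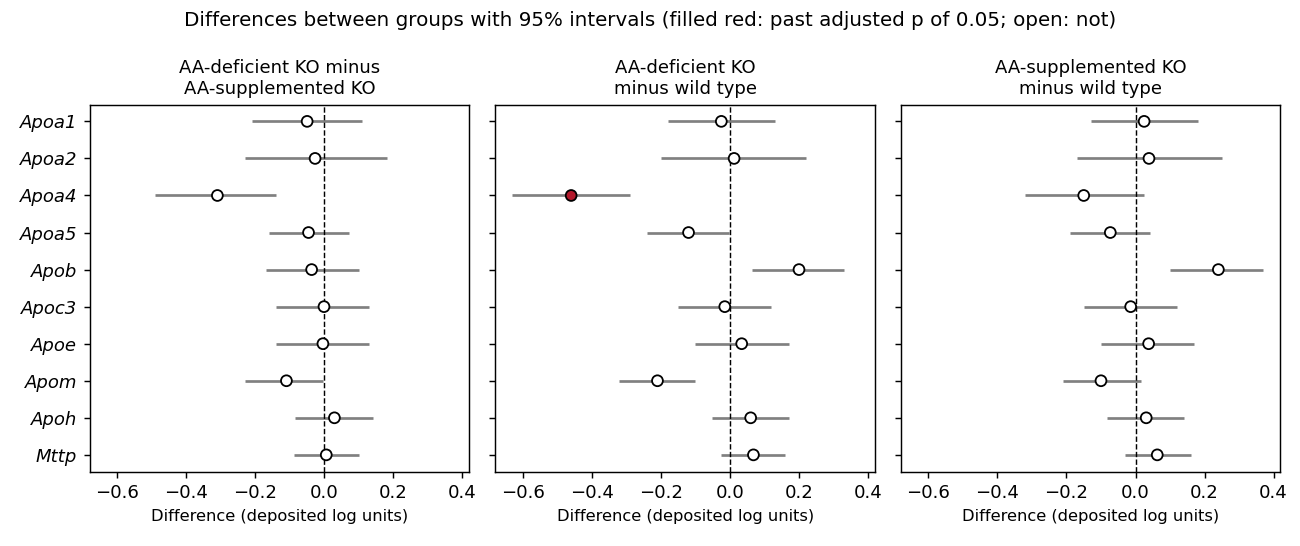
Differences between groups (points, deposited log units) with 95% intervals (lines) for each member in the 3 comparisons; a filled red point passed the threshold. Apoa4 in AA-deficient knockouts against wild type, at -0.46, is the filled point, and Apob lies at 0.20 and 0.24 in the comparisons with wild type.

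The genes that act on triglyceride clearance gave smaller differences. Apoa5, of apolipoprotein A-V, was at 1.80 and 1.74 in AA-deficient knockouts, 1.77 and 1.86 in AA-supplemented knockouts, and 1.93 and 1.85 in wild type. AA-deficient knockouts lay below wild type without overlap, by -0.12 (SE 0.050, 95% interval -0.24 to -0.0032), which did not pass (adjusted p = 0.232, limma). Apoc3, of apolipoprotein C-III, was at 1.87 and 1.76 in AA-deficient knockouts, 1.76 and 1.88 in AA-supplemented knockouts, and 1.86 and 1.81 in wild type. All 3 groups overlapped, with group means of 1.82, 1.82 and 1.83 in that order. Among the 4 genes of the chromosome 9 cluster, the difference of AA-deficient knockouts from wild type was thus -0.46 for Apoa4, -0.12 for Apoa5, -0.025 for Apoa1 and -0.015 for Apoc3. Apoh, of the phospholipid-binding plasma protein beta-2-glycoprotein I, was at 2.10 and 2.08 in AA-deficient knockouts, 2.02 and 2.10 in AA-supplemented knockouts, and 2.07 and 1.99 in wild type. It differed from wild type by 0.060 in AA-deficient knockouts (SE 0.049, 95% interval -0.053 to 0.17).

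The arrays of AA-supplemented knockouts stood furthest apart for these genes. Array 2 was above array 1 for 9 of 10 members, with a median of 0.13 and a range from -0.04 to 0.21. In wild type array 2 was above array 1 for 1 of 10 members (median -0.084, range -0.22 to 0.08), and in AA-deficient knockouts for 4 of 10 (median -0.0097). Of the members, 9 were among the brightest 5% of genes tested, all but Apom. Over those 734 brightest genes, array 2 minus array 1 had a median of 0.061 in AA-supplemented knockouts, -0.042 in wild type and -0.022 in AA-deficient knockouts, against 0.00017, -0.0043 and 0.00061 over all genes tested. After cyclic loess normalisation, which evens out such trends with brightness, Apoa4 differed between AA-deficient knockouts and wild type by -0.47, Apom by -0.21, Apob by 0.18, Apoa5 by -0.14, Mttp by 0.057, Apoh by 0.039 and Apoe by 0.0047.

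**Figure D3:**
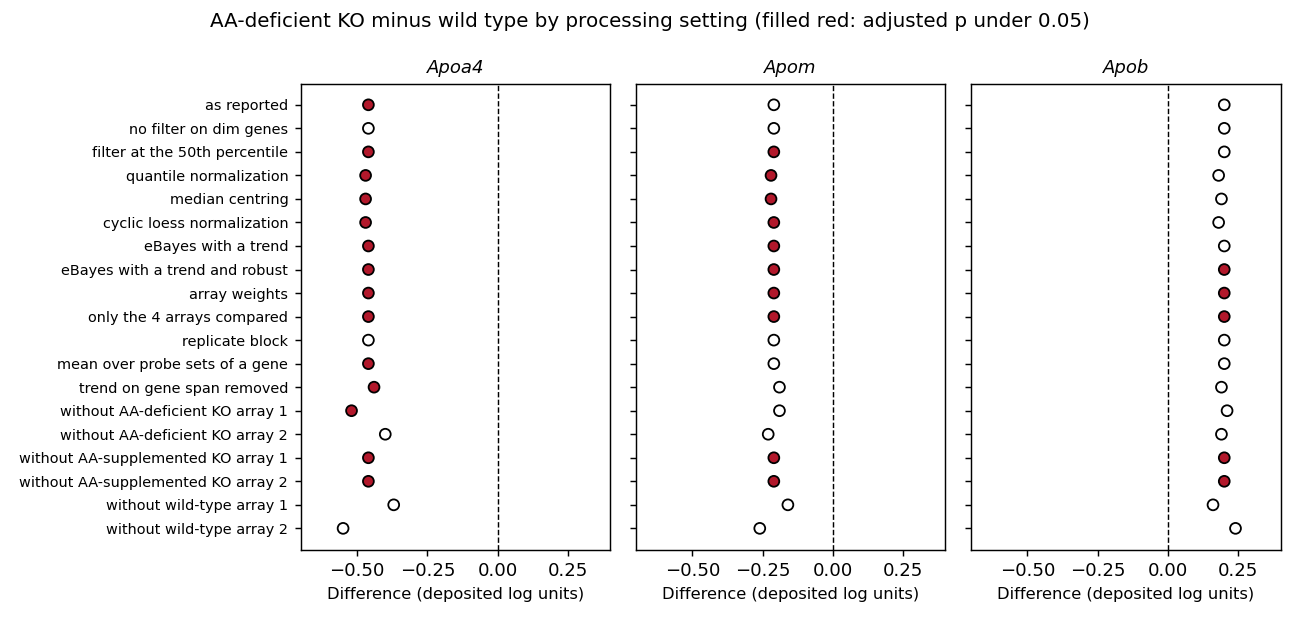
Difference of AA-deficient knockouts from wild type (deposited log units) for Apoa4, Apom and Apob as reported and under each of 18 alternative settings; a filled red point has an adjusted p under 0.05. Apoa4 ranged from -0.55 to -0.37 and passed in 13 of 18 alternatives (3 of them the same fit), Apom ranged from -0.26 to -0.16 and Apob from 0.16 to 0.24.

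Apoa4 was the member with the largest difference between any groups. Predicted genes, clones, bare accessions, and olfactory receptor, vomeronasal receptor and microRNA genes were left unnamed. Of the rest, the genes whose values over the 6 arrays followed Apoa4 most closely were Vwa3a (Pearson's r 0.992), Elk1 (0.991), Sox2 (0.989), Rmnd5b (0.988) and Srm (0.985). These ranked 2 to 6, the gene above them being left unnamed. They were taken from 14661 genes compared over the same 6 arrays, which fall into 3 groups. The highest group mean was 0.30 for Vwa3a, 0.70 for Elk1 and 0.69 for Sox2. Srm, which encodes spermidine synthase, was at 1.47 and 1.37 in AA-deficient knockouts, 1.58 and 1.61 in AA-supplemented knockouts, and 1.74 and 1.67 in wild type.

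The members and all gene lists were chosen with earlier results of these data known, so their counts beside all genes are descriptions alone. Beyond the members, 35 other genes listed for VLDL assembly and secretion were tested. That list also holds genes of lipid droplets (Cidec) and of Apob mRNA editing (A1cf). In AA-deficient knockouts against wild type 6 rose and 1 fell, against 3.08% and 1.55% of all genes, with a median difference of -0.0093 against -0.0034 over all genes. Over the alternatives 0 to 11 passed. Sort1, the sorting receptor sortilin, which binds apolipoprotein B in the Golgi, was at 0.92 and 0.96 in AA-deficient knockouts, at 0.62 on each array of AA-supplemented knockouts, and at 0.44 and 0.42 in wild type. The 3 groups did not overlap, and AA-deficient knockouts rose by 0.51 against wild type (SE 0.04, 3.25-fold, adjusted p = 0.00327, limma) and by 0.32 against AA-supplemented knockouts (SE 0.04, 2.08-fold, adjusted p = 0.0405, limma). It was the only 1 of the 35 genes past the threshold between the knockouts, against 0.205% of all genes. There 7 of the 35 had an unadjusted p under 0.05, against 9.92%. The Sort1 call between the knockouts was lost on leaving out any array and with no filter on dim genes. It was also lost with array weights, with only the 4 arrays compared and with the replicate block (8 of 18 settings kept it). Cidec, of a lipid droplet protein that promotes droplet growth, was at 0.21 and 0.20 in AA-deficient knockouts, 0.48 and 0.51 in AA-supplemented knockouts, and 0.63 and 0.72 in wild type. It fell by 0.47 in AA-deficient knockouts against wild type (SE 0.046, adjusted p = 0.0052, limma). Its AA-deficient values lay near the filter value of 0.185 and were not shown to be above background, so no fold is given. The calls of Sort1 and Cidec against wild type were lost without wild-type array 1 and without wild-type array 2.

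A1cf, the RNA-binding partner of the enzyme that edits Apob mRNA, was at 1.60 and 1.58 in AA-deficient knockouts, 1.52 and 1.5 in AA-supplemented knockouts, and at 1.39 on each wild-type array. It rose by 0.20 in AA-deficient knockouts against wild type (SE 0.039, 1.57-fold, adjusted p = 0.0378, limma). Apobec1, the editing enzyme itself, was looked up after the values were seen. It was at 0.83 and 0.85 in AA-deficient knockouts, 0.96 and 1.01 in AA-supplemented knockouts, and 0.97 and 1.01 in wild type. AA-deficient knockouts lay below wild type by -0.15 (SE 0.042) without passing (adjusted p = 0.0829, limma). The AA-deficient means of A1cf and Apobec1 lay on opposite sides of wild type, and only the A1cf difference was called. Edited and unedited Apob transcripts are not told apart by these values.

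Mia3, of the export receptor TANGO1 that helps large cargo leave the endoplasmic reticulum, was at 1.40 and 1.39 in AA-deficient knockouts, 1.32 and 1.30 in AA-supplemented knockouts, and 1.18 and 1.22 in wild type. It rose by 0.20 against wild type (SE 0.041, adjusted p = 0.0407, limma). The carboxylesterase gene Ces1g, at 2.04 and 1.99 in AA-deficient knockouts, 1.85 and 1.76 in AA-supplemented knockouts, and 1.80 and 1.76 in wild type, rose by 0.23 (SE 0.048, adjusted p = 0.0407, limma). The remaining rises, named after their values were seen, were Ces1d by 0.23 (SE 0.046), a lipase used for VLDL triglyceride, and Lpcat3 by 0.20 (SE 0.042), which makes polyunsaturated phosphatidylcholine. Ces1g and Ces1d are close paralogues, and signal shared between their probes was not tested. The calls of Ces1g, Ces1d, A1cf, Mia3 and Lpcat3 were each lost without any one of AA-deficient array 1, AA-deficient array 2, wild-type array 1 and wild-type array 2. All 5 were also lost with no filter on dim genes, with median centring and with the replicate block. With the trend on span removed, A1cf, Mia3 and Lpcat3 lost theirs, and Ces1g did so after quantile and cyclic loess normalisation. In AA-supplemented knockouts against wild type 0 of these 35 genes passed in limma, and 6 had an unadjusted p under 0.05, against 10.6% of all genes.

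**Figure D4:**
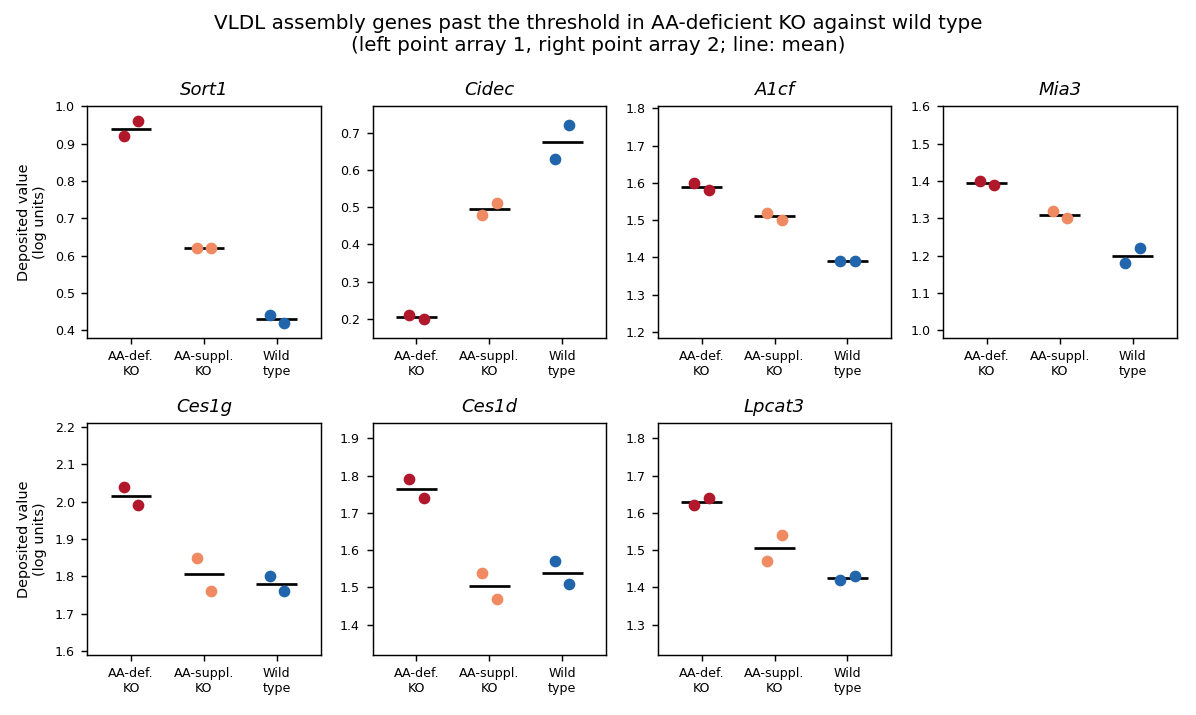
Deposited values (log units) of the 7 genes of the VLDL assembly and secretion list past the threshold in AA-deficient knockouts against wild type. Each array is shown, with array 1 as the left point, array 2 as the right point and the group mean as a line. Sort1 was at 0.92 to 0.96 in AA-deficient knockouts and 0.42 to 0.44 in wild type, and Cidec at 0.20 to 0.21 and 0.63 to 0.72.

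Of 16 other apolipoprotein and HDL genes tested, 0 rose and 1, Saa2, fell past the threshold in AA-deficient knockouts against wild type. The shares over all genes were 3.08% and 1.55%, and 2 of the 16 had an unadjusted p under 0.05, against 20.4%. Saa2 encodes an acute phase serum amyloid A that travels on HDL, and was at 1.24 and 1.74 in AA-deficient knockouts, 2.18 and 2.35 in AA-supplemented knockouts, and 2.15 and 2.18 in wild type. It fell by 0.68 against wild type (SE 0.14, 4.78-fold lower, adjusted p = 0.0404, limma), a difference of -0.43 without AA-deficient array 1, and the call was lost without either wild-type array, with no filter on dim genes and with a trend and robust variance model. Its neighbour and close paralogue Saa1 was at 0.50 and 0.95 in AA-deficient knockouts, 1.36 and 1.46 in AA-supplemented knockouts, and 1.20 and 1.41 in wild type. Neither passed between the knockouts (limma, Saa2 -0.78 with adjusted p = 0.104, Saa1 -0.69 with adjusted p = 0.124). There 0 of the 16 passed and 4 had an unadjusted p under 0.05, against 9.92% of all genes. In AA-supplemented knockouts against wild type 0 of 16 passed in limma and 0 had an unadjusted p under 0.05, against 10.6% of all genes.

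Receptors and lipases that take up or remodel lipoproteins rose in AA-deficient knockouts where they passed against wild type. Of 13 receptor and uptake genes tested, 3 rose and 0 fell, and of 14 remodelling genes 1 rose and 0 fell, against 3.08% and 1.55% of all genes. Over the alternatives 0 to 6 receptor and 0 to 2 remodelling genes passed. Lrp1, a remnant receptor that binds apolipoprotein E, was at 1.93 and 1.94 in AA-deficient knockouts, 1.84 and 1.97 in AA-supplemented knockouts, and 1.36 and 1.55 in wild type, and rose by 0.48 in AA-deficient knockouts (SE 0.069, adjusted p = 0.0159, limma). Every knockout array lay above the wild-type arrays, as for Apob. AA-supplemented knockouts differed from wild type by 0.45 (SE 0.069, adjusted p = 0.135, limma). Stab2, an endothelial scavenger receptor, rose by 0.24 in AA-deficient knockouts (SE 0.045, adjusted p = 0.032, limma), the fatty acid transporter Cd36 by 0.58 (SE 0.052) and lipoprotein lipase, Lpl, by 0.73 (SE 0.09). All 4 calls were lost without either wild-type array, those of Lrp1 and Stab2 also without AA-deficient array 2, and that of Stab2 also without AA-deficient array 1. The Stab2 call was also lost with no filter on dim genes, with the replicate block and with the trend on span removed. Among 11 liver endothelial markers, which include Stab2, 1 rose and 0 fell in AA-deficient knockouts against wild type (3.08% and 1.55% of all genes). There 2 had an unadjusted p under 0.05, against 20.4%. Between the knockouts 0 of the 11 passed in limma and 3 had an unadjusted p under 0.05, against 9.92%. Without overlap 6 were higher and 0 lower, against 19.8% and 17.5%. The mean over the markers was 1.10 to 1.13 in AA-deficient knockouts, 1.04 to 1.07 in AA-supplemented knockouts and 1.06 to 1.07 in wild type. Between the knockouts 0 receptor or remodelling genes passed in limma (2 of each list at an unadjusted p under 0.05, against 9.92% of all genes). In AA-supplemented knockouts against wild type 0 passed as well (5 and 2 at an unadjusted p under 0.05, against 10.6%).

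Of 25 transcription factors and coregulators of apolipoprotein genes tested, 6 rose and 0 fell in AA-deficient knockouts against wild type. The shares over all genes were 3.08% and 1.55%, and this list too was chosen with earlier results known. Over the alternatives 0 to 7 passed. Srebf1, of the lipogenic factor SREBP-1, was at 1.26 and 1.42 in AA-deficient knockouts, 1.01 and 0.86 in AA-supplemented knockouts, and 0.83 and 0.92 in wild type, and rose by 0.46 (SE 0.071, adjusted p = 0.0185, limma). Mlxipl, of the carbohydrate response factor ChREBP, was at 1.60 and 1.55 in AA-deficient knockouts, 1.46 and 1.57 in AA-supplemented knockouts, and 1.25 and 1.30 in wild type, and rose by 0.30 (SE 0.05, adjusted p = 0.0224, limma). The coactivator gene Ppargc1b, known to promote lipogenesis and VLDL secretion in mouse liver, rose by 0.23 (SE 0.042). The orphan receptor genes Rora and Nr1d1, an activator and a repressor of clock-controlled genes, rose by 0.22 (SE 0.039) and 0.32 (SE 0.062). Foxo1, known to activate Mttp and Apoc3 in mouse liver and named after its value was seen, rose by 0.19 (SE 0.042, adjusted p = 0.0458, limma). All 6 calls were lost without either wild-type array and without AA-deficient array 2, and all but that of Srebf1 without AA-deficient array 1. The replicate block also ended all 6, no filter on dim genes all but that of Srebf1, removal of the trend on span those of Rora, Ppargc1b and Foxo1, and median centring that of Foxo1. Hnf4a, also looked up after the fact because its motif stands in the Apoa4 and Apob windows, was at 2.05 and 2.0 in AA-deficient knockouts, 2.01 and 2.17 in AA-supplemented knockouts, and 2.01 and 1.97 in wild type, with overlap between every pair of groups. It differed by 0.035 in AA-deficient knockouts against wild type (SE 0.058, 95% interval -0.10 to 0.17). Between the knockouts 0 of the 25 passed in limma (3 at an unadjusted p under 0.05, against 9.92% of all genes). In AA-supplemented knockouts against wild type 0 passed (5 at an unadjusted p under 0.05, against 10.6%).

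Other abundant plasma proteins of hepatocytes served as a comparison for the apolipoproteins. Of 27 tested, 0 passed in any comparison in limma. An unadjusted p under 0.05 was reached by 2 between the knockouts (9.92% of all genes). Against wild type it was reached by 0 in AA-deficient (20.4%) and 1 in AA-supplemented knockouts (10.6%). The median absolute difference of AA-deficient knockouts from wild type was 0.022 over these 27 genes and 0.064 over the 10 members, against 0.057 over all genes. Between the knockouts it was 0.034 and 0.033, against 0.041 over all genes. In AA-supplemented knockouts against wild type it was 0.034 and 0.051, against 0.044. Hp, which encodes haptoglobin, had the smallest p among them between the knockouts, with a difference of -0.20 (SE 0.07, adjusted p = 0.387, limma). Markers of other cells were also counted. Of 11 hepatocyte, 11 stellate cell, 3 cholangiocyte, 4 lymphocyte, 4 enterocyte and 5 adipocyte or pancreatic markers tested, 0 passed in any comparison in limma. For AA-deficient knockouts against wild type 0, 2, 0, 0, 1 and 1 of them had an unadjusted p under 0.05, against 20.4% of all genes. Without wild-type array 1, or without wild-type array 2, 1 gene of all those tested passed in AA-deficient knockouts against wild type, and 0 of the VLDL assembly, receptor or transcription factor genes did.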

How the data were processed

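Liver RNA of 6 samples was hybridised to Affymetrix mouse gene arrays. Per the labels' protocols, RNA was isolated with ISOGEN and labelled with an Affymetrix whole-transcript kit. The authors deposited 1 table of log values, taken here as log10 because their range would span only 8.48-fold if they were log2 and 1213-fold as log10. Log base, normalisation and background correction were not given in the sources used here; folds hold on the log10 reading only. Values were not centred per gene, and no detection call was used. Of 34760 probe sets, 3995 held no value and 21161 of the other 30765 carried 1 gene symbol in the platform annotation. The highest-mean probe set stood for a gene, and genes at or above the 25th percentile of the mean (0.185) were tested.

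A single limma fit (version 3.58.1, R 4.3.3; lmFit, contrasts.fit and eBayes) held all 6 arrays, with 3 residual degrees of freedom and 4.89 from the prior. Two-sided p-values were adjusted by Benjamini-Hochberg over the 14662 genes tested. With 2 arrays against 2, an exact permutation test cannot go below p = 0.333, so none was used. The fit was tested on simulated data. The members and gene lists were chosen with earlier results of these data known. Named were all members, up to 5 genes past the threshold of each list (up to 2 of smallest p where none passed), and Rgn. Also named were the 5 genes most correlated with the member of largest difference, among genes that could be named. Predicted genes, clones, bare accessions, and olfactory receptor, vomeronasal receptor and microRNA genes were left out there. Genes named otherwise are marked as such. Motifs were chosen after the promoter sequences were seen. Precision is limited by the number of arrays. Alternatives covered the filter, normalisation, variance model, array weights, samples in the fit, replicate block, probe set rule, gene span and leaving out each array.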

Additional observations from a re-analysis of the deposited data

How the results depend on the processing

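With 2 arrays a group, counts of genes past the threshold moved with the processing, while the differences of Apoa4, Apom and Apoa5 in all comparisons, of Apob and Mttp in those with wild type, and of Apoe and Apoh in AA-deficient knockouts against wild type kept their sign under all 18 alternatives. Of 540 repeats of member differences, 41 changed sign, 15 newly passed and 5 lost a call. Those that changed sign belonged to Apoa1, Apoa2, Apoc3, Apoe, Apoh, Apob and Mttp. For Apob and Mttp the sign changed only between the knockouts. None of the differences that changed sign was called, as reported or under any alternative. The cause was not tested.

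Over all genes, those past the threshold between the knockouts (30) numbered 0 without the filter, 51 with the filter at the 50th percentile, 14 after quantile normalisation, 57 after median centring, 13 after cyclic loess, 154 with a trend, 177 with a trend and robust fit, 15 with array weights, 0 with only the 4 arrays compared, 4 with the replicate block, and 0 to 46 without 1 array. In AA-deficient knockouts against wild type (679) they were 173 (no filter), 1057 (50th percentile), 1271 (trend), 1312 (trend and robust), 1344 (weights), 1031 (4 arrays), 163 (replicate block), 451 (span trend removed) and 1 to 1031 without 1 array. In AA-supplemented knockouts against wild type (1) they were 8 after median centring, 94 and 116 with a trend, 3 with the replicate block and 1 to 7 without 1 array. Members past the threshold in AA-deficient knockouts against wild type (1) were 0 without the filter and with the replicate block, 2 with the higher filter, each normalisation and the trend, 3 with the robust fit, weights and 4 arrays, and 0 to 3 without 1 array. In the F test (0) they were 1 with the higher filter, each normalisation and weights, 2 with the trend, 3 with the robust fit, and 0 to 2 without 1 array. The members' median ranged from -0.095 to 0.045 between the knockouts, -0.059 to 0.037 in AA-deficient and -0.070 to 0.078 in AA-supplemented knockouts against wild type without 1 array.

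Signs changed between the knockouts after quantile normalisation for Apoa2 (0.00051), Apoc3 (0.0011), Apoe (0.010) and Mttp (-0.0031), after median centring for Apoc3 (4e-04), after cyclic loess for Apoc3 (0.0010) and Apoe (0.0080), and without the span trend for Apoc3 (0.0081), Apoe (0.0034) and Mttp (-0.00041). Against wild type they changed in AA-deficient knockouts for Apoa2 (quantile -0.0037, loess -0.011) and Apoc3 (span 0.0050), and in AA-supplemented knockouts for Apoa1 (quantile -0.019, loess -0.012), Apoa2 (quantile -0.0042), Apoh (quantile -0.0021) and Apoe (loess -0.0033). Without 1 array, the ranges between the knockouts were -0.15 to 0.049 for Apoa1, -0.13 to 0.077 for Apoa2, -0.11 to 0.040 for Apob, -0.064 to 0.062 for Apoc3, -0.093 to 0.084 for Apoe, -0.012 to 0.069 for Apoh and -0.018 to 0.028 for Mttp. In AA-deficient knockouts against wild type they were -0.079 to 0.029 for Apoa1, -0.10 to 0.12 for Apoa2 and -0.069 to 0.039 for Apoc3. In AA-supplemented knockouts against wild type they were -0.074 to 0.12 for Apoa1, -0.072 to 0.15 for Apoa2, -0.077 to 0.049 for Apoc3, -0.050 to 0.13 for Apoe and -0.011 to 0.073 for Apoh.

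The labels number the arrays alike in each group. Deviations of same-numbered arrays correlated across genes at -0.37 between the knockouts. The correlation with wild type was 0.36 for AA-deficient and -0.28 for AA-supplemented knockouts. With 2 arrays a group, these values cannot show whether same-numbered arrays shared a batch, which was not tested. The replicate block left 2 residual degrees of freedom.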
